A study of Mus musculus with 6 samples.

Results

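The genes described are the Wnt ligands, their Frizzled receptors and co-receptors, the secreted modulators and feedback genes of the pathway, and the core genes of planar cell polarity, as measured by RNA-Seq in isolated lung ECs (iLECs) after endothelial loss of Atp6ap2. They were chosen by a rule on symbols that used no measured value, although earlier results of these data were known. The rule took every row whose symbol begins with Wnt and a digit, the numbered Fzd, Sfrp, Dkk and Celsr genes, and Vangl1 and Vangl2. It also took 14 further genes (Lrp5, Lrp6, Ror1, Ror2, Ryk, Axin1, Axin2, Lef1, Tcf7, Nkd1, Notum, Rspo1, Rspo2 and Rspo3). This gave 56 of the 24972 gene symbols in the table. The study asked what endothelial ATP6AP2 does in the growing vessels of newborn mice, and compared 3 control libraries with 3 Atp6ap2 iECKO libraries, 1 per sample. All pups received 100 µg of tamoxifen on postnatal days 1, 2 and 3, and lungs were taken on postnatal day 7 (P7). Control pups carried the floxed Atp6ap2 allele without Cre (labelled fl/Y, with the sample titles calling them WT), and Atp6ap2 iECKO pups carried the same allele with Cdh5-CreERT2, a tamoxifen-activated Cre under control of the promoter of Cdh5, which encodes the endothelial junction protein VE-cadherin. The control libraries therefore share the tamoxifen but not the Cre transgene. The labels give the strain as C57BL/6, whereas the study's methods describe a mixed CD1 and C57BL/6 background. Cells were taken from dissociated lung with magnetic beads that carry an antibody to CD31, an endothelial surface protein, and the study checked the purity of the iLECs by immunoblot. In that check it reported VE-cadherin only in the iLECs, and the muscle proteins αSMA and desmin in the non-endothelial fraction. The study describes the 3 libraries of a genotype as biological replicates, and how many animals made up a library is not given in the sources used here.

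Wnt ligands are secreted lipid-modified proteins that bind Frizzled receptors. With the co-receptors LRP5 and LRP6 they keep β-catenin from being degraded, and β-catenin then acts with TCF and LEF proteins to switch on targets such as Axin2; this is the canonical branch. Other ligands, among them WNT5A and WNT11, act through Frizzled receptors with ROR and RYK receptors on cell shape and movement, and the planar polarity proteins of the CELSR and VANGL families align cells within a sheet. In the lung, WNT2 is known as a mesenchymal ligand needed for lung formation, and FZD4 is known as an endothelial receptor that also binds norrin. ATP6AP2 itself is known as an adaptor between the Wnt receptor complex and the vacuolar proton pump, and has been tied to planar polarity in flies.

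The values are normalized counts, that is, the number of reads estimated for a gene after the authors scaled the libraries to each other. Differences are given as log2 of Atp6ap2 iECKO over control, each normalized count having had 1 added first, with the standard error (SE) of the limma fit and a P value adjusted over all genes tested, and a gene is called when that value is below 0.05. A gene was tested if 3 or more libraries reached a normalized count of 10. The libraries summed to between 26243878 and 28725799 normalized counts, which are scaled totals, so the depth of each library is unknown. Atp6ap2, the deleted gene, stood at normalized counts of 7490, 5815 and 5681 in the control libraries and 4220, 2336 and 1982 in the Atp6ap2 iECKO libraries, so that the library labelled Atp6ap2 iECKO 1 kept more of it than the others. Xist, the RNA made by the inactive X chromosome of female cells, stood at normalized counts of 37704, 44402, 39442 and 47487 in control 1, control 2, Atp6ap2 iECKO 1 and Atp6ap2 iECKO 3 and at 31.7 and 19.3 in control 3 and Atp6ap2 iECKO 2. All 6 labels give a genotype with a Y chromosome, so these values go against the labels of 4 libraries. The study's methods state that neonates of both sexes were used, and its results section describes the females as fl/fl (floxed on both X chromosomes). It does not state which sexes entered the RNA-Seq. Each called gene is therefore also given within the libraries of high Xist and within the low pair.

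Of the 56 genes, 45 passed the filter and 10 were called. Of these, 9 were lower in the Atp6ap2 iECKO libraries (Wnt2, Wnt4, Wnt5a, Wnt5b, Fzd1, Fzd7, Fzd8, Ror1 and Dkk3), against 4.97% of all genes tested, and 1 was higher (Celsr1), against 3.28% of all genes. The 10 called genes made up 22.2% of the 45, where 8.25% of all 14456 genes tested were called in either direction. The genotypes did not overlap for 22 of the 45 genes (48.9%; 19 lower and 3 higher), against 29.8% of all genes. The median log2 difference over the 45 genes was -0.25, beside 0.00488 over all genes tested. With 3 libraries against 3, the exact permutation test cannot give a two-sided P value below 0.1, so a single gene could not be called by ranks alone.

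**Figure D1:**
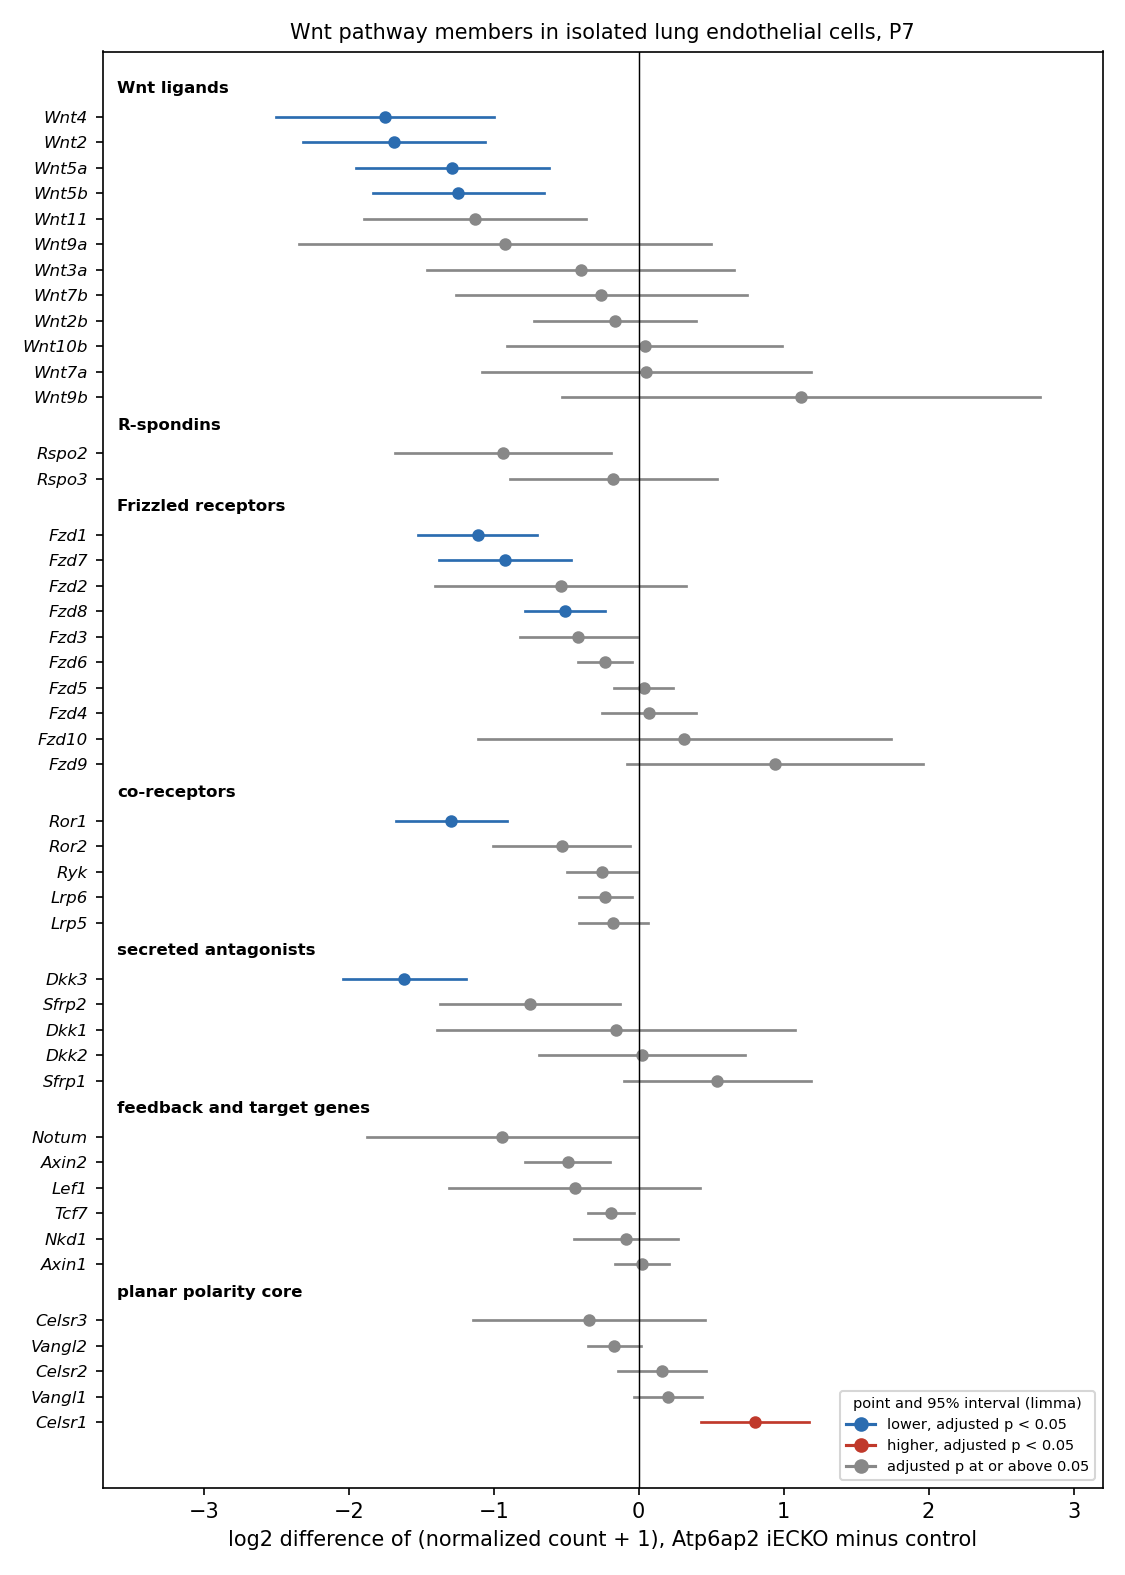
Log2 difference of Atp6ap2 iECKO over control for the 45 tested genes, grouped by role, with 95% confidence intervals from the limma fit over all genes; colour marks the genes with an adjusted P value below 0.05. The 9 genes called lower lie between -1.75 and -0.51, and Celsr1, the only one called higher, lies at 0.80.

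Promoter sequences are given for 3 genes that the results turn on: Wnt2, the ligand with the highest level; Wnt5b, a called ligand with a TCF/LEF core in a promoter window; and Axin2, the target most often read for canonical signalling. Each is the RefSeq sequence of assembly GRCm38.p6 from 250 bases before to 50 bases after a transcription start, 5′ to 3′ on the strand of the gene. Capitals mark the core, searched as CTTTGAT or CTTTGAA on both strands. The windows are chr6:18030396-18030695 (minus strand) for Wnt2, chr6:119449337-119449636 (minus strand) for Wnt5b and chr11:108920099-108920398 (plus strand) for Axin2.
Wnt2: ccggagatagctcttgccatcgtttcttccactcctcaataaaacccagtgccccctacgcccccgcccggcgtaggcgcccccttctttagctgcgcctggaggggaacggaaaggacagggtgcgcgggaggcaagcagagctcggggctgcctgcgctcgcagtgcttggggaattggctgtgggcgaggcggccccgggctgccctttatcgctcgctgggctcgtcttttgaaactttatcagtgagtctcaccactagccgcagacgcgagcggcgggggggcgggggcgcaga
Wnt5b: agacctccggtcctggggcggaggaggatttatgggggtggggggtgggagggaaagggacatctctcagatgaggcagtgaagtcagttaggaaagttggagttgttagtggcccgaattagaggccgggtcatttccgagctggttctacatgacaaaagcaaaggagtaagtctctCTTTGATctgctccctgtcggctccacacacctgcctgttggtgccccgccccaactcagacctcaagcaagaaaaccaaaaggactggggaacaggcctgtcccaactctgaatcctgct
Axin2: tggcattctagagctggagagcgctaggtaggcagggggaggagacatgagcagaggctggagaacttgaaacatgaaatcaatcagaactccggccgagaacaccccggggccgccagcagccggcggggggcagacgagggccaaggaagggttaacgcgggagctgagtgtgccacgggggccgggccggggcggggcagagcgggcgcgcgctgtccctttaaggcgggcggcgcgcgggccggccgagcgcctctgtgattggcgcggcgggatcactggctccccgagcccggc

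RefSeq windows were matched for 36 of the 56 genes, 43 windows in all. The core lay in 3 of the 43 (6.98%), beside 8.65% of all 32851 promoter windows. It lay 71 bases before 1 of the 3 starts of Wnt5b that have a window, 51 bases before 1 of the 2 such starts of Wnt11 and 117 bases before that of Dkk1. The windows of Wnt2 and Axin2 held no match to these letters, and Wnt5a, Fzd8, Dkk3 and Celsr1, which were also called, were not searched here. A missing match says nothing of sites elsewhere. The median GC content was 67.3% in the windows of these genes and 52.7% in all windows.

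To compare levels between genes, normalized counts were divided by the length of the union of the exons in kb. On this scale the highest levels belonged to receptors, feedback genes and Dkk3, with the ligands below them. Fzd4 led in the control libraries with a level of 1885 ± 349 per kb (SD, n = 3), followed by the feedback inhibitor Nkd1 at 1154 ± 153 and the transcription factor Tcf7 at 923 ± 20.3. Dkk3 (712 ± 117) and Fzd6 (644 ± 39.2) lay within their spread of each other, as did Lrp5 (562 ± 11.0) and Ryk (556 ± 68.1). Wnt2 was the first ligand, at rank 11 among the 56 genes, at a level of 240 ± 84.4 per kb, ahead of Wnt5a at 86.7 ± 33.1 and Wnt11 at 72.4 ± 31.3. In the Atp6ap2 iECKO libraries the level of Wnt2 was 70.6 ± 3.88 per kb, and those of Wnt5a and Wnt11 were 33.6 ± 3.56 and 30.6 ± 2.34.

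**Figure D2:**
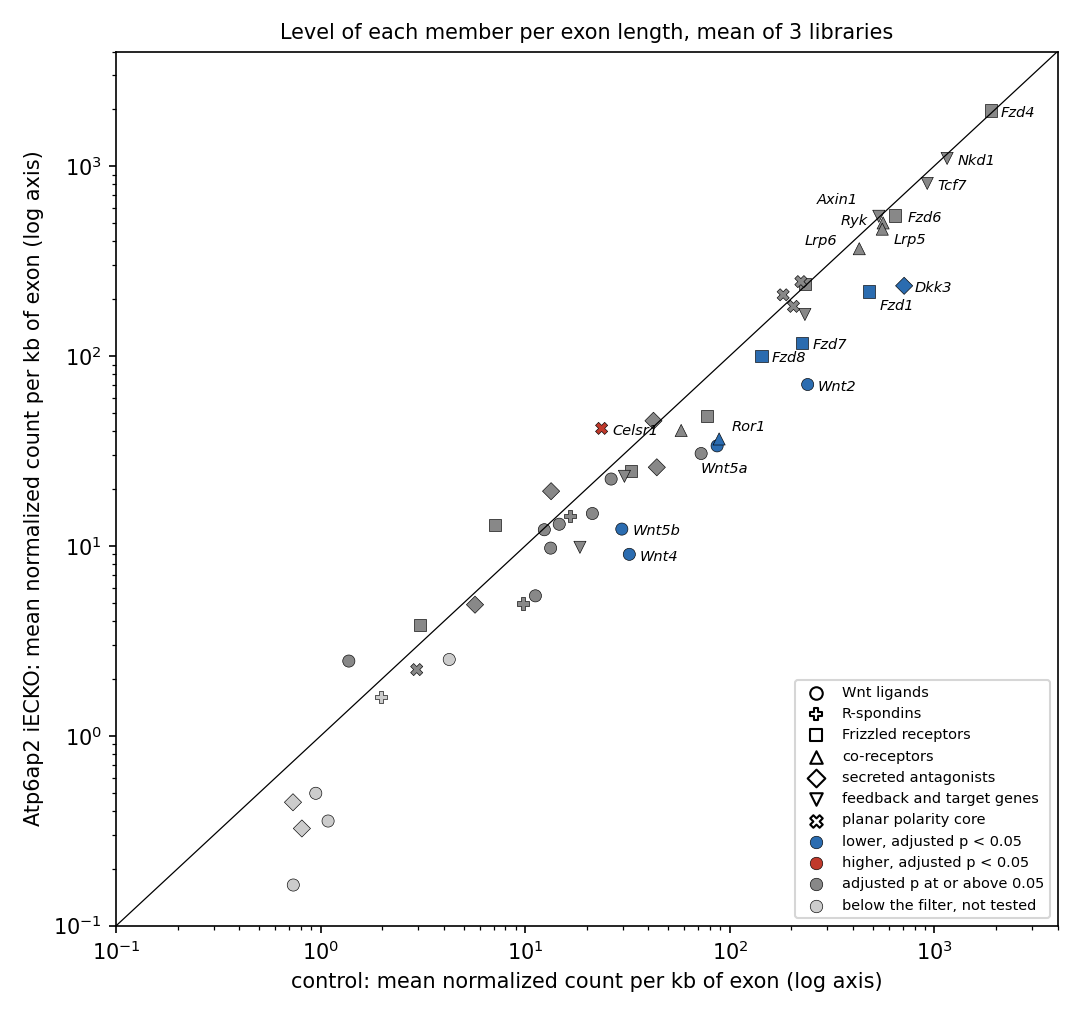
Mean normalized count per kb of exon in the 3 Atp6ap2 iECKO libraries against that in the 3 control libraries, both on log axes, with the shape giving the role, the colour the call and the line equality; genes at 0 in either genotype (Wnt1, Wnt8a, Wnt16 and Dkk4) cannot be drawn. Fzd4, Nkd1 and Tcf7 lie at the top close to the line, and the genes called lower fall below it at all levels from Wnt4 and Wnt5b up to Dkk3.

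Of the ligands, 4 were lower in the Atp6ap2 iECKO libraries: Wnt2, Wnt4, Wnt5a and Wnt5b. Their mean levels in Atp6ap2 iECKO were 29.4%, 27.9%, 38.7% and 41.3% of control. No ligand was called higher, and the median difference over the 12 ligands tested was -0.66 on the log2 scale.

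Wnt2 lies on chromosome 6 from 17988940 to 18030585 on the minus strand (GRCm38, as do all positions of genes given here). It had normalized counts of 322, 663 and 639 in the control libraries and 153, 155 and 169 in the Atp6ap2 iECKO libraries. All 3 control values were above all 3 Atp6ap2 iECKO values, and control 1 was the lowest of the controls. The log2 difference was -1.69 (SE 0.27, adjusted P = 0.0140). Wnt4, a ligand known from kidney and female reproductive tract development, had normalized counts of 93.5, 114 and 198 in control and 44.3, 31.8 and 37.2 in Atp6ap2 iECKO. Its genotypes did not overlap either, with a log2 difference of -1.75 (SE 0.33, adjusted P = 0.0215).

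Wnt5a and its paralog Wnt5b are the ligands most often linked to the noncanonical branch. For Wnt5a, on chromosome 14 from 28504750 to 28527448, the normalized counts were 385, 774 and 876 in control against 231, 281 and 276 in Atp6ap2 iECKO. As for Wnt2, control 1 was well below the other 2 controls but above every Atp6ap2 iECKO library. The log2 difference was -1.29 (SE 0.29, adjusted P = 0.0363). Wnt5b was less abundant and varied less, with normalized counts of 69.8, 77.5 and 88.7 in control and 31.6, 30.5 and 35.4 in Atp6ap2 iECKO. Its log2 difference was -1.25 (SE 0.26, adjusted P = 0.0280). Wnt11, another ligand with known noncanonical activity, had 158, 327 and 413 in control and 116, 129 and 135 in Atp6ap2 iECKO. The genotypes did not overlap, but at -1.13 on the log2 scale (SE 0.33) the adjusted P value was 0.0786 and the gene was not called.

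Wnt2 and Wnt4 were no longer called when control 3 (adjusted P = 0.0583 and 0.0624), Atp6ap2 iECKO 2 or Atp6ap2 iECKO 3 was left out. Wnt5a and Wnt5b stayed called only when control 1 was left out. The genotypes did not overlap for any ligand called, so leaving out 1 library could not change its direction.

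The 7 other ligands tested did not pass the threshold, and none of them separated the genotypes. Wnt7a, known from the lung epithelium, had normalized counts of 41.5, 47.1 and 162 in control and 60.9, 75.6 and 77.2 in Atp6ap2 iECKO, a log2 difference of 0.05 (95% confidence interval -1.08 to 1.19). Wnt7b, which is also made by lung epithelium, had 42.3, 37.6 and 116 in control and 42.3, 50.5 and 50.1 in Atp6ap2 iECKO. In both genes control 3 stood alone above the other 5 libraries. Control 3 was the highest of all 6 libraries for 9 of the 12 ligands tested, against 19.7% of all genes tested. It was also the highest for 13 of 15 epithelial markers, 10 of 15 mural and smooth muscle markers and 4 of 13 fibroblast markers. The same held for 1 of 15 leukocyte markers and 0 of 15 endothelial markers. The part of this library in the ligand values was not tested beyond leaving it out. Wnt2b was even across the libraries, between 52.1 and 69.8 normalized counts, and Wnt10b lay between 25.8 and 65.4. Wnt3a, Wnt9a and Wnt9b ranged from 31.9 to 101, from 9.28 to 67.5 and from 2.25 to 14.0, with log2 differences of -0.40, -0.92 and 1.12.

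The other 7 ligands (Wnt1, Wnt3, Wnt6, Wnt8a, Wnt8b, Wnt10a and Wnt16) stayed below the filter, together with Rspo1, Sfrp4, Sfrp5 and Dkk4. The highest value of these 11 genes in any library was 16.5, for Wnt6 in control 1. Wnt8a, Wnt16 and Dkk4 were listed at 0 in all 6 libraries. Wnt genes often lie in pairs in the genome. Wnt3a and Wnt9a, 16.2 kb apart on chromosome 11, both passed the filter, and Wnt6 and Wnt10a, 6.19 kb apart on chromosome 1, both did not. Wnt10b was tested while Wnt1, 11.7 kb away on chromosome 15, was not, and Wnt9b passed the filter while Wnt3, 24.3 kb away on chromosome 11, did not.

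R-spondins are secreted proteins that keep Frizzled receptors on the cell surface. Rspo2 had normalized counts of 46.7, 39.7 and 63.3 in control and 21.6, 24.0 and 30.6 in Atp6ap2 iECKO. The genotypes did not overlap, and the log2 difference of -0.94 (SE 0.32) did not pass the threshold (adjusted P = 0.125). Rspo3, known as an endothelial R-spondin of the developing vasculature, had 58.5, 59.0 and 36.2 in control and 42.2, 52.6 and 38.9 in Atp6ap2 iECKO, with overlapping genotypes and a log2 difference of -0.18 (SE 0.31).

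All 10 Frizzled genes were tested. Fzd1, Fzd7 and Fzd8 were lower in Atp6ap2 iECKO, at 45.3%, 51.6% and 69.8% of the control mean, and none was called higher. Fzd4, the most abundant of them, was not called.

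Fzd4, on chromosome 7 from 89404355 to 89413134, had normalized counts of 14716, 13177 and 10110 in control and 12262, 13716 and 13465 in Atp6ap2 iECKO. The genotypes overlapped fully, and the log2 difference of 0.07 had a 95% confidence interval of -0.25 to 0.39. Fzd1 had 1465, 2155 and 2434 in control and 967, 933 and 844 in Atp6ap2 iECKO (log2 difference -1.11, SE 0.18, adjusted P = 0.0138). Fzd7, a close paralog of Fzd1, had 719, 1228 and 1126 in control and 569, 538 and 479 in Atp6ap2 iECKO. All controls lay above all Atp6ap2 iECKO libraries, with control 1 the nearest to them, and the log2 difference was -0.92 (SE 0.20, adjusted P = 0.0317). Fzd2, the other member of that subfamily, was higher in control 2 and control 3 than in any Atp6ap2 iECKO library, but control 1 was below all of them. Its normalized counts were 140, 264 and 450 in control and 158, 181 and 188 in Atp6ap2 iECKO, a log2 difference of -0.54 (SE 0.38, adjusted P = 0.437). For Fzd8 the normalized counts were 727, 946 and 889 in control against 598, 584 and 605 in Atp6ap2 iECKO, a smaller difference of -0.51 on the log2 scale (SE 0.12, adjusted P = 0.0412).

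Fzd6 and Fzd3, the Frizzled receptors best known for planar polarity, were not called. Fzd6 had 2891, 3256 and 3159 in control and 2538, 2786 and 2591 in Atp6ap2 iECKO, without overlap (log2 difference -0.23, SE 0.08, adjusted P = 0.129). Fzd3 had 412, 459 and 388 in control and 247, 339 and 367 in Atp6ap2 iECKO, again without overlap (log2 difference -0.42, SE 0.17). Fzd9 was low and had 25.7, 14.1 and 8.89 in control and 29.5, 27.7 and 31.4 in Atp6ap2 iECKO, 1 of the 3 genes of the whole set whose Atp6ap2 iECKO libraries all lay above the controls. Its log2 difference of 0.94 (SE 0.44) was not called (adjusted P = 0.245). Fzd5 was even, between 1458 and 1708 normalized counts, and Fzd10 was near the filter, between 4.65 and 16.7. Fzd7 and Fzd8 stayed called only in the fit without control 1, and Fzd1 in every fit except that without Atp6ap2 iECKO 3 (adjusted P = 0.0596).

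Among the co-receptors, Ror1 was the only one called. ROR1 is a receptor tyrosine kinase-like protein that binds WNT5A. Ror1, on chromosome 4 from 100095791 to 100444765, had normalized counts of 518, 487 and 528 in the control libraries and 240, 225 and 166 in the Atp6ap2 iECKO libraries. The controls lay close together and far above the Atp6ap2 iECKO libraries, with a log2 difference of -1.29 (SE 0.17, adjusted P = 0.0092), and the call held in all 6 fits that left out 1 library. Ror2, its paralog, had 219, 251 and 267 in control and 201, 130 and 184 in Atp6ap2 iECKO. The genotypes did not overlap, and the log2 difference of -0.53 (SE 0.21) was not called (adjusted P = 0.162).

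Lrp6, the main co-receptor of the canonical branch and the one with which ATP6AP2 has been placed in a complex, had 6197, 5688 and 5729 in control and 4730, 5111 and 5183 in Atp6ap2 iECKO. The groups did not overlap, but the difference was small, -0.23 on the log2 scale (SE 0.08, adjusted P = 0.121). Lrp5, the co-receptor of norrin signalling through FZD4, had 5563, 5353 and 5493 in control and 5586, 4760 and 4280 in Atp6ap2 iECKO, with overlap (log2 difference -0.17, SE 0.10). Ryk ranged from 2023 to 2737 normalized counts, with a log2 difference of -0.25 (adjusted P = 0.186).

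**Figure D3:**
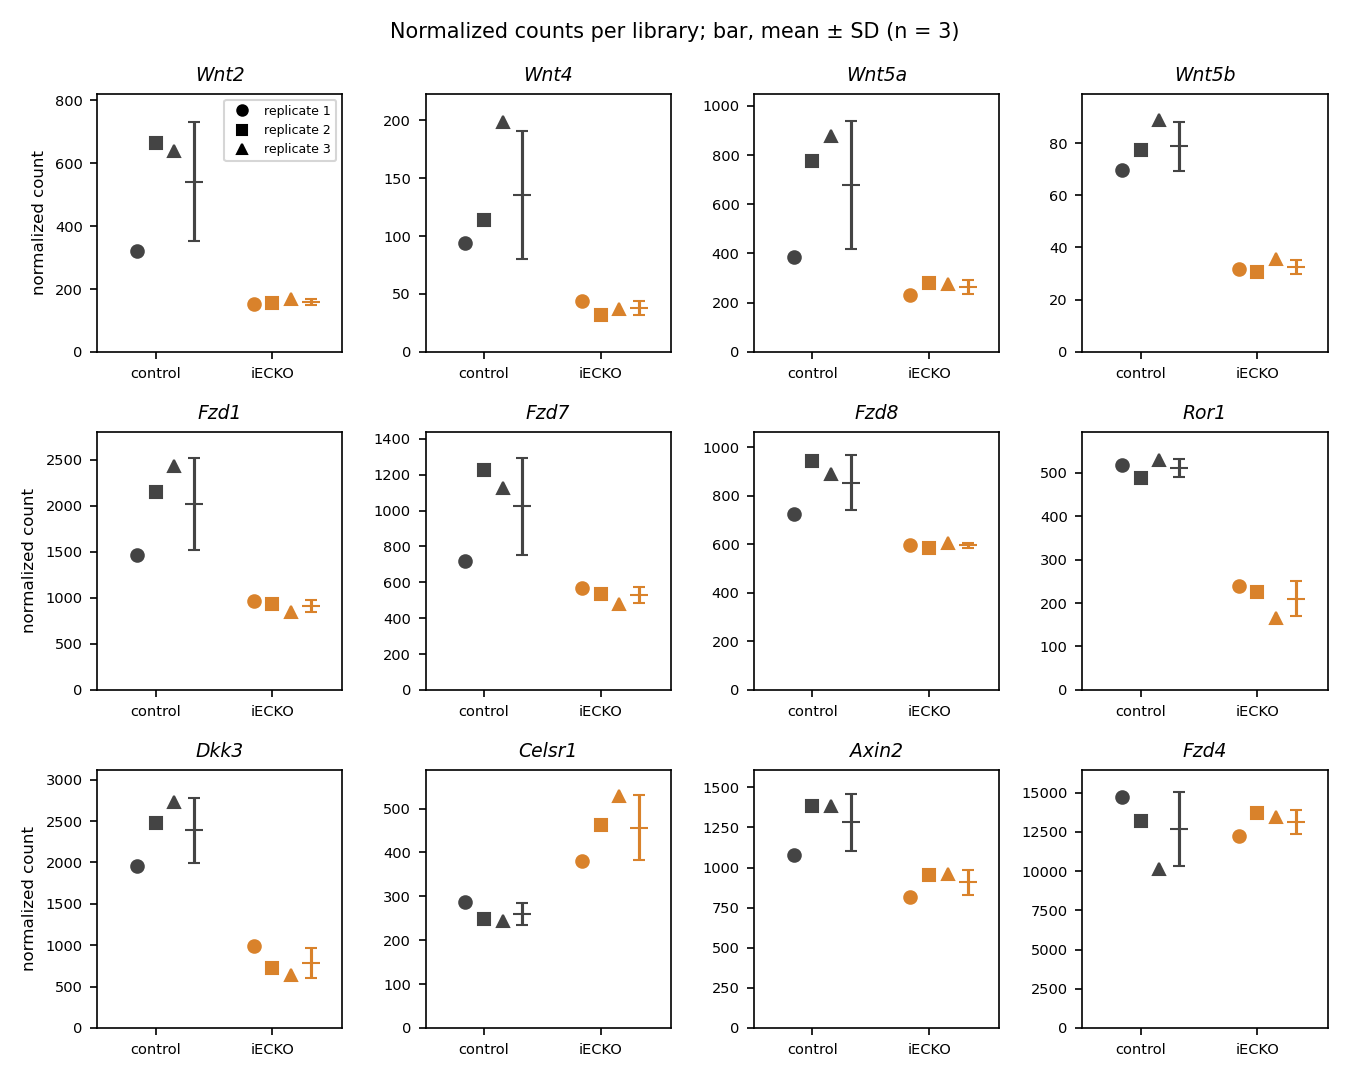
Normalized count in each of the 6 libraries (vertical axis from 0; points, shaped by replicate number) with the mean ± SD of each genotype, for the 10 called genes, Axin2 and Fzd4. All 10 called genes and Axin2 separate the genotypes completely, Celsr1 in the other direction from the rest, and Fzd4 does not separate them.

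Dkk3 had the lowest adjusted P value of the 45 genes. It encodes a secreted protein of the Dickkopf family, whose action on Wnt signalling is less clear than that of the LRP antagonist DKK1. Dkk3, on chromosome 7 from 112116017 to 112159057, had normalized counts of 1962, 2475 and 2734 in control and 991, 728 and 635 in Atp6ap2 iECKO. Even the highest Atp6ap2 iECKO library was far below the lowest control, at a log2 difference of -1.62 (SE 0.18, adjusted P = 0.00831), and the call held in all 6 fits that left out 1 library. Dkk1 was near the filter, between 6.78 and 18.1, and Dkk2 lay between 101 and 240, with a log2 difference of 0.02 (95% confidence interval -0.69 to 0.73).

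The secreted Frizzled-related proteins bind Wnt ligands outside the cell. Sfrp1 had 43.7, 72.7 and 59.0 in control and 76.8, 75.0 and 102 in Atp6ap2 iECKO, and Sfrp2 had 99.2, 111 and 73.6 in control and 48.7, 50.2 and 68.3 in Atp6ap2 iECKO. The genotypes did not overlap for either gene, in opposite directions, and neither was called, at log2 differences of 0.54 (SE 0.28, adjusted P = 0.288) and -0.75 (SE 0.27, adjusted P = 0.137).

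No feedback or target gene was called by limma, and 3 of 6 were below 0.05 before adjustment. Axin2, on chromosome 11 from 108920349 to 108950783, encodes a scaffold of the β-catenin destruction complex that the pathway itself induces. It had normalized counts of 1076, 1386 and 1384 in control and 817, 952 and 957 in Atp6ap2 iECKO, or 70.9% of the control mean. The genotypes did not overlap, and the log2 difference of -0.49 (SE 0.13) had an adjusted P value of 0.0552, just above the threshold. In the fits without 1 library this P value ranged from 0.0240 to 0.155, below 0.05 only without control 1. Tcf7, which encodes a transcription factor that binds β-catenin, had 2387, 2399 and 2484 in control and 2124, 2117 and 2125 in Atp6ap2 iECKO. Both groups were tight and did not overlap, yet the log2 difference was only -0.19 (SE 0.07, adjusted P = 0.140).

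Lef1, the related factor, had 286, 176 and 343 in control and 259, 108 and 244 in Atp6ap2 iECKO, and the second library was the lowest of both genotypes (log2 difference -0.44, SE 0.38). Nkd1, an inhibitor of Dishevelled that the pathway induces, had 6027, 5089 and 4669 in control and 6178, 4311 and 4472 in Atp6ap2 iECKO, with overlap (log2 difference -0.09, SE 0.15). Notum, a secreted enzyme that removes the lipid from Wnt ligands, had 51.7, 32.8 and 49.1 in control and 33.1, 13.8 and 24.1 in Atp6ap2 iECKO (log2 difference -0.94, SE 0.41, adjusted P = 0.206). For Notum, 29.4% of the exon length is shared with an antisense gene in the annotation, and the library kit does not mark strand, so reads of the pair cannot be told apart. Genes annotated on the other strand also share 17.8% of the exon length of Fzd5, 16.1% of Sfrp2, 13.7% of Lef1, 13.1% of Rspo3 and 8.8% of Wnt11, 6.61% of Wnt7b, 4.58% of Wnt5a and 3.8% of Axin2. Of these overlapping genes, the deposited table lists only AU022754, the partner of Wnt7b. Axin1, which the pathway is not known to induce, was even at 1952 to 2192 normalized counts, a log2 difference of 0.02 (95% confidence interval -0.17 to 0.21).

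The planar polarity core was the only role with a gene called higher. Celsr1, a large adhesion receptor that joins neighbouring cells in the polarity pathway and is known from lung epithelium and from lymphatic and venous valves, lies on chromosome 15 from 85898929 to 86033777. Its normalized counts were 288, 248 and 244 in control and 380, 462 and 528 in Atp6ap2 iECKO. All Atp6ap2 iECKO libraries were above all controls, at 176% of the control mean and a log2 difference of 0.80 (SE 0.16, adjusted P = 0.0262). The call was kept without control 1 and without Atp6ap2 iECKO 1 and lost in the other 4 fits that left out 1 library, at adjusted P values of up to 0.107. Celsr2, its most abundant paralog, had 2868, 2782 and 2036 in control and 2793, 2896 and 2803 in Atp6ap2 iECKO, with overlap (log2 difference 0.16, SE 0.13). Celsr3 was low, between 24.1 and 49.3.

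Neither of the 2 Van Gogh-like genes was called. Vangl1 had 1312, 1399 and 1203 in control and 1603, 1547 and 1348 in Atp6ap2 iECKO (log2 difference 0.20, SE 0.10, adjusted P = 0.281), with overlap. Vangl2 had 1425, 1398 and 1470 in control and 1333, 1243 and 1243 in Atp6ap2 iECKO, without overlap (log2 difference -0.17, SE 0.08, adjusted P = 0.242).

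Other genes of the pathway were taken from a list of 74 genes, of which 69 were tested. The list was chosen with earlier results of these data known. Of the 69, 14 were called (20.3%), against 8.25% of all genes tested. Of these, 12 were lower and 2 higher, where 4.97% and 3.28% of all genes were called lower and higher. The median log2 difference over the 69 was -0.21. Among further secreted or membrane antagonists, 3 of 7 were lower: Wif1, which binds Wnt ligands directly (log2 difference -1.10, SE 0.23), Shisa2 (-1.51, SE 0.27) and Shisa3 (-1.97, SE 0.48), which hold Frizzled receptors inside the cell. Among further polarity and noncanonical genes, 4 of 18 were lower: Dact1 (-1.47, SE 0.20) and Dact3 (-1.36, SE 0.21), which bind Dishevelled, the formin Daam2 (-0.75, SE 0.18) and the giant cadherin Fat4 (-0.53, SE 0.13). Rspo4 (-1.90, SE 0.33) and Reck (-0.78, SE 0.11), a partner of the WNT7 ligands at the endothelial surface, were the 2 called of 12 genes for receptor turnover and co-factors.

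Inside the cell, none of the 13 genes of the cytoplasmic relay was called at the adjusted threshold, while 2 of them were below 0.05 before adjustment in the limma fit. Ctnnb1, which encodes β-catenin, had a log2 difference of -0.11 (SE 0.11). Both genes for ligand secretion (Porcn and Wls) had log2 differences below 0, and neither was called, with 1 below 0.05 before adjustment in limma. Of 11 nuclear factors, the co-activator Bcl9l (-0.48, SE 0.11) and the co-repressor Tle3 (-0.53, SE 0.10) were lower. The remaining targets went both ways: Tnfrsf19 was lower (log2 difference -1.43, SE 0.28), and Ccnd1 (0.85, SE 0.15) and Myc (0.82, SE 0.17), which also respond to many other signals, were higher.

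Markers of other lung cell types were measured beside these genes. Endothelial markers were at high level in the iLECs, but so was the epithelial marker Sftpc. Cdh5 stood between 18225 and 26365 normalized counts per kb in control and between 20908 and 24150 in Atp6ap2 iECKO. Pecam1 stood between 7824 and 9248 per kb in control and between 8917 and 9274 in Atp6ap2 iECKO. For Sftpc the range was 13149 to 37783 per kb in control and 15895 to 20877 in Atp6ap2 iECKO. Col1a1, of the fibroblast markers, stood between 1274 and 2644 per kb in control and between 596 and 651 in Atp6ap2 iECKO. Of 15 endothelial markers, 1 was called (Tek, lower), and their summed normalized count was 435781 to 568244 in control and 405729 to 487225 in Atp6ap2 iECKO. Of 13 tested fibroblast markers, 10 were lower, with a median log2 difference of -1.47 and a sum of 93657 to 143632 in control and 33082 to 47438 in Atp6ap2 iECKO. Of 15 mural and smooth muscle markers, 11 were lower, with a median of -1.52 and a sum of 24494 to 33791 in control and 13191 to 14945 in Atp6ap2 iECKO. Among them, Acta2 and Des encode the αSMA and desmin of the study's immunoblot. Acta2 had normalized counts of 659 to 1535 in control and 269 to 562 in Atp6ap2 iECKO. Des had 661 to 998 in control and 223 to 323 in Atp6ap2 iECKO. Of the fibroblast markers, 2 went the other way, Pi16 and Mfap5, and neither was called. Pi16 was higher in every Atp6ap2 iECKO library than in any control. Most fibroblast markers and the mural markers thus fell together with the 9 genes called lower, and their part in those differences was not tested. In bulk samples, fewer cells of a type and less RNA per cell cannot be told apart.

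The epithelial markers did not move with genotype as a group, with 1 of 15 called (Scgb1a1, higher) and a sum of 32420 to 82213 in control, the highest in control 3, and of 39626 to 47097 in Atp6ap2 iECKO. No leukocyte marker of 15 was called, and the limma fit gave none of them an unadjusted P value below 0.05. Their sum was 6780 to 12512 in control and 5602 to 16422 in Atp6ap2 iECKO. Of 8 mesothelial markers, 3 could be tested and none was called, with 1 at an unadjusted P value below 0.05 in the same fit. Among the defining markers, Wt1 and Bnc1 of the mesothelium did not exceed normalized counts of 5.53 and 1.51 in any library, and Lum and Dcn of fibroblasts did not exceed 11.3 and 34.4.

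The position of control 1 among the controls was also shared, although the spread of the controls enters the fit that made the calls. Control 1 was the lowest control for 8 of the 9 genes called lower (all but Ror1) and for 20 of all 45 Wnt and polarity genes tested. The same held for 15 of 15 mural markers and 11 of 13 fibroblast markers, against 38.9% of all genes tested. Taken as the median log2 ratio to the control mean, the 9 genes stood at -0.43, 0.13 and 0.21 in controls 1 to 3, the fibroblast markers at -0.37, 0.23 and 0.09, the mural markers at -0.42, 0.20 and 0.23, and the endothelial markers at 0.16, -0.04 and -0.11. In the Atp6ap2 iECKO libraries the 9 genes stood at -1.26, -1.18 and -1.22, the fibroblast markers at -1.12, -1.63 and -1.67 and the mural markers at -1.37, -1.41 and -1.70. The 9 genes were selected by their call, so their distance between genotypes and their order among the controls are a description.

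**Figure D4:**
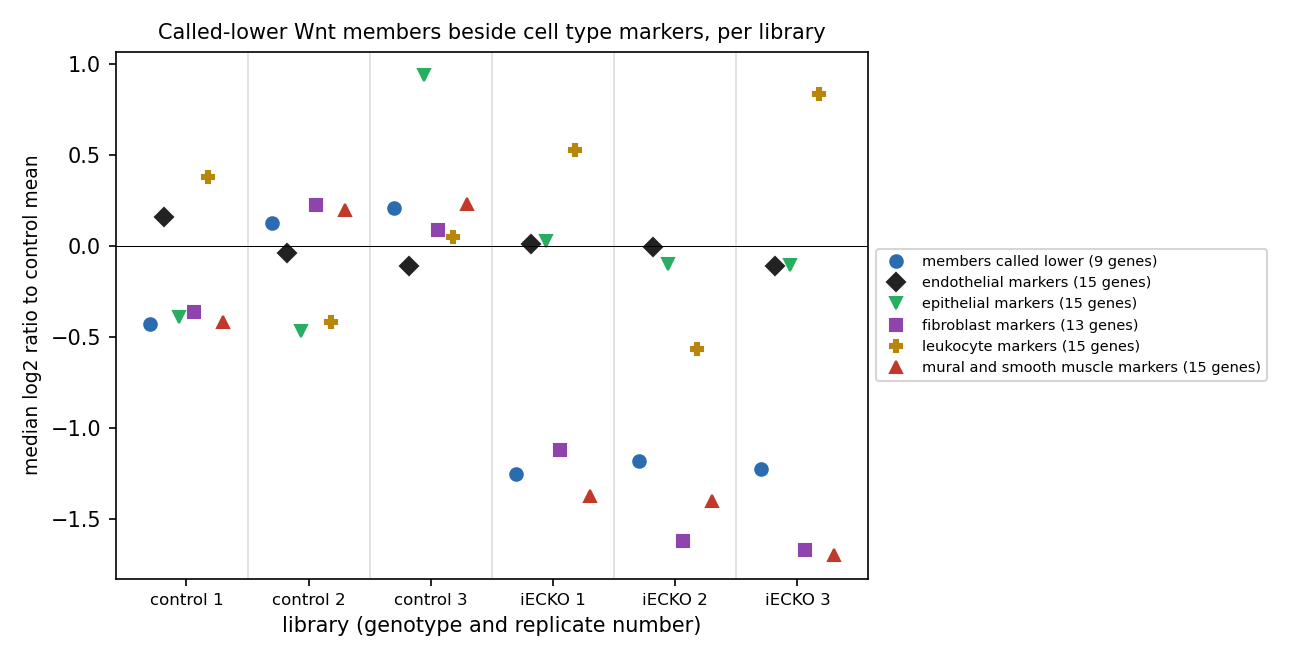
Median log2 ratio to the control mean in each library for the 9 genes called lower and for the markers of 5 cell types. The 9 genes and the fibroblast and mural markers are below 0 in control 1 and below -1 in all Atp6ap2 iECKO libraries, where the 9 genes differ little between libraries and the markers reach -1.70, while the endothelial markers stay between -0.11 and 0.16.

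The genotypes did not overlap for any of the 10 called genes, so no split of the libraries by Xist could change their direction. Their differences were computed within the 4 libraries of high Xist (2 of each genotype) and within the low pair (1 of each). The log2 difference of Wnt2 was -1.52 in the former and -2.03 in the latter, that of Wnt4 -1.33 and -2.60, that of Wnt5a -1.11 and -1.64 and that of Wnt5b -1.11 and -1.51. For the receptors, it was -0.98 and -1.38 for Fzd1, -0.85 and -1.07 for Fzd7 and -0.46 and -0.60 for Fzd8, in the same order. That of Ror1 was -1.33 and -1.22, that of Dkk3 -1.47 and -1.91, and that of Celsr1 0.74 and 0.92. In the fit to the 4 libraries of high Xist, limma called none of the genes, at adjusted P values of 0.121 to 0.290 for the 10, and 12 of 44 had an unadjusted P value below 0.05; it also called none of the 14094 genes tested there, of which 2196 were below 0.05 unadjusted.

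The number of genes called depended on the libraries used. It was 13 without control 1, 5 without control 2, 3 without control 3, 6 without Atp6ap2 iECKO 1, 3 without Atp6ap2 iECKO 2 and 2 without Atp6ap2 iECKO 3, and Dkk3 and Ror1 were called in all of these. For the 74 other pathway genes the count was 14, 6 and 4 without controls 1 to 3 and 13, 2 and 3 without Atp6ap2 iECKO 1 to 3.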

How the data were processed

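The authors aligned reads to the mm10 (GRCm38) genome and quantified genes with the BaseSpace RNA-Seq Alignment (2.0.1) and RNA-Seq Differential Expression (1.0.1) tools. The authors deposited 1 table with a normalized signal, an estimated count scaled between libraries, for 24972 symbols in 6 libraries. The labels call the values raw counts, but they are not whole and their median ratio to the geometric mean is 1.0036 in every library, so no count model was fitted and depth is unknown. Log2(value + 1) was tested with limma 3.58.1 in R 4.3.3 (mean-variance trend, no covariate) in the 14456 genes with at least 10 in at least 3 libraries, with Benjamini-Hochberg adjustment over all of them and a threshold of 0.05. The procedure was tested on simulated data. Of the symbols, 24490 (98.1%) matched GENCODE M21, which gave positions and exon lengths. Figures were drawn with matplotlib 3.10.9.

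Genes named with values in every library were those called, those leading their role, those without overlap between genotypes, and Lrp6, Axin2, Lef1, Tcf7, Nkd1, Notum, Celsr1, Vangl1 and Vangl2; Fzd2, Wnt7a and Wnt7b were added after their values were seen. The genes and lists were chosen with earlier results of these data known. Alternatives were other pseudocounts, filters, scalings and thresholds, no trend, robust fitting, Xist or replicate number as a covariate, and leaving out each library; the fit to the 4 libraries of high Xist was chosen after seeing the data.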

Additional observations from a re-analysis of the deposited data

How the results depend on the processing

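The 10 called genes were the same with a pseudocount of 0.5 or 5, with no filter or a filter at 50, with upper quartile scaling and with robust fitting; total scaling and Xist as a covariate each lost only Fzd8 (9 called). Over all genes, the 56 Wnt and polarity genes and the 74 other pathway genes, the counts called were 304, 3 and 3 without the trend, 90, 2 and 0 at a threshold of 0.01, and 0, 0 and 0 in the 4 libraries of high Xist (unadjusted P below 0.05 in limma: 2196, 12 and 20). Over all genes, 1987 were called at a threshold of 0.1 and 767 with Xist as a covariate. Leaving out 1 library gave 206 to 983, 2 to 13 and 2 to 14. The split into higher and lower calls over all genes was 474 and 719, with total scaling 573 and 599, and without control 2 460 and 365. Reversed differences were small, all in genes that were not called: Nkd1 at 0.0135 without control 1 and 0.0067 without Atp6ap2 iECKO 2 (-0.2527 to 0.0135 over the 6 fits), Fzd4 at -0.0846 without control 3 (-0.0846 to 0.1862) and -0.12 in the libraries of high Xist, and there also Celsr2 at -0.0137 and Lef1 at 0.16. Same-numbered libraries deviated together by r = 0.25, 0.11 and 0.08, in each case the highest r of that Atp6ap2 iECKO library. Control 3 correlated better with Atp6ap2 iECKO 2 (0.10) than with its own number, but these are the libraries of low Xist. Whether the numbers pair the samples cannot be decided from these values, and the fit behind the calls did not pair them. With the replicate block 1508, 12 and 16 were called, Axin2 and Wnt11 being added among the Wnt and polarity genes (adjusted P = 0.0218 and 0.0376). The cause of these changes was not tested. Fold changes of genes near the filter are held down by the pseudocount.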
